A study of Mus musculus with 6 samples.

Results

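MHC class I molecules display peptides from inside a cell at its surface, where CD8 T cells and natural killer cells read them. Each complex is a heavy chain held by the light chain beta-2 microglobulin, and it leaves the endoplasmic reticulum once a peptide has been bound. The peptides are cut by proteasomes, carried across the membrane by the TAP transporter and fitted with the help of the chaperone tapasin. Fibroblasts, such as those of tendon, make this machinery at a resting level, and interferons are known to raise it.

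The 10 genes described here are the heavy chains H2-K1, H2-D1, H2-Q4, H2-T22, H2-T23 and H2-M3, the light chain B2m, the transporter subunits Tap1 and Tap2, and Tapbp, which encodes tapasin. They were taken by name from a table of 24413 genes, in which all 10 were present. A test was run on the 11678 genes whose values averaged 1 FPKM or more across all 6 libraries, among them 10 of the 10 members. FPKM is the number of fragments per kilobase of gene, scaled to a library's total. Its values are set side by side here between genes and libraries, but the scaling does not correct for differences in composition between libraries. Summed FPKM was 265390 to 270292 in control libraries and 270249 to 275246 with conditioned medium.

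The libraries were bulk RNA-seq of cells from Achilles tendon, sorted for the tdT reporter, from 3 male mice aged 12 weeks with the genotype Tppp3ECE/+;R26RtdT-CreERT2;Scx-GFP. The reporter marks cells in which the Tppp3 locus has been active, and every library of both groups came from such cells. The control group (3 libraries) spent 24 h in medium with 1% FBS. The conditioned-medium group (3 libraries) spent 24 h in medium taken from cultures of lumbar dorsal root ganglia (DRG), which hold the cell bodies of sensory neurons. Those ganglia came from 3 male C57BL/6J mice aged 12 weeks, and were grown for 4 to 5 days with the antimitotic reagents 5-fluoro-2-deoxyuridine and uridine at 20 µM before a change to medium with 1% FBS. That medium was collected daily, filtered at 0.22 µm and frozen. The control medium had not been on any culture, so products of neurons, products of other ganglion cells, use of the medium and remaining reagent cannot be told apart. Which animal each library came from is not labelled, so the spread behind every p-value is one between libraries and may be partly technical. In bulk samples, fewer cells of a type and less RNA per cell cannot be told apart.

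The libraries held an estimated 18774973 to 26061927 fragments. Tppp3 itself ranged from 0.724 to 1.05 FPKM in control libraries, and from 0.777 to 1.12 FPKM with conditioned medium, whereas all 10 genes of a tendon fibroblast list were above 1 FPKM and summed to 5292 to 5420 FPKM in control libraries, against 4262 to 4370 FPKM in conditioned medium. Of those 10 genes 7 were lower in conditioned medium, and their part in the class I values was not tested. Markers of leukocytes, which carry much class I, summed to 7.13 to 8.53 FPKM in control libraries, and to 6.89 to 7.48 FPKM with conditioned medium, over the 9 of 12 listed genes in the table. Of these, 3 were tested and 0 passed: over the 6 libraries Cd14 ranged from 2.72 to 3.47 FPKM, Lyz2 from 1.55 to 3.21 FPKM and Cd68 from 1.06 to 1.79 FPKM, with log2 fold changes of 0.12, -0.40 and 0.14. The pan-leukocyte gene Ptprc did not exceed 0.0093 FPKM in any library, and the macrophage gene Adgre1 was at 0 in 5 of 6 libraries. Summed markers of endothelium (5 of 6 genes in the table) ranged from 5.73 to 6.52 FPKM in control, against 4.40 to 4.86 FPKM in conditioned medium. For DRG neurons (6 of 9 genes) the ranges were 24.6 to 28.1 FPKM and 19.0 to 21.4 FPKM, and for glia (6 of 6 genes) 3.29 to 3.96 FPKM and 2.14 to 3.39 FPKM. Each of these sums came mostly from 1 gene: Tek in endothelium, Tubb3 (15.9 to 23.9 FPKM) in neurons and S100b in glia. Tek and Tubb3 were lower in conditioned medium, and S100b did not pass. Uchl1, the other neuron gene tested, had a log2 fold change of 0.00. The glial gene Mbp went the other way, at 0.322 to 0.507 FPKM and 0.512 to 0.569 FPKM. The sums therefore do not measure the content of a cell type. No marker list of another cell type had a higher summed range in conditioned medium.

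Of the 10 members, 9 were higher in conditioned medium and 0 were lower at an adjusted p of 0.05, by limma on log2(FPKM + 1) with Benjamini-Hochberg adjustment over all 11678 tested genes. Over all tested genes, 472 (4.04%) were higher and 291 (2.49%) were lower, and with quantile normalization 394 were higher and 361 lower. The same 9 members had every conditioned-medium library above every control library, an arrangement found in 1675 of the tested genes (14.3%). The members' median log2 fold change was 0.30, beside 0.0052 for all tested genes. The increases were moderate, from 1.16-fold for B2m to 1.79-fold for H2-Q4 in mean FPKM, and H2-M3 was the member that did not pass. H2-T23, H2-T22 and H2-Q4 passed under each alternative in which they were tested, whereas the calls of the other 6 were less secure. With no filter on low values 3 members passed, and leaving out 1 library at a time left 3 to 8. The count was 4 without control library 2, and 3, 4 and 5 without conditioned-medium libraries 1, 2 and 3.

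**Figure D1:**
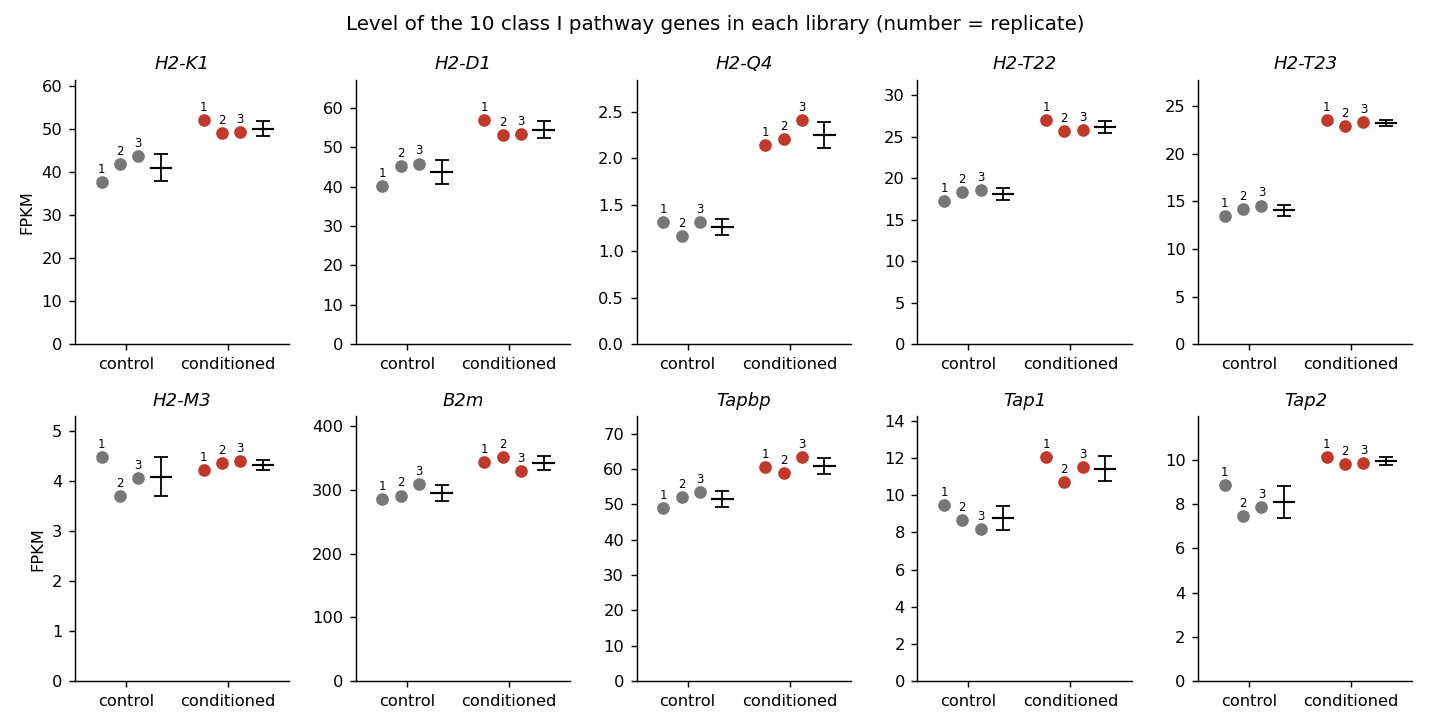
FPKM (linear axis from 0, scaled per gene) of the 10 members in each control (grey) and conditioned-medium (red) library; each numbered point is 1 library, and the bars beside them give the mean and SD (n = 3). In 9 of the 10 panels the red points lie above all grey points, and in H2-M3 they overlap.

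Letters around the RefSeq starts of the genes are shown because 3 of the members that rose share a stretch almost letter for letter with each other and, in its last letters, with H2-M3, which did not pass. Class I promoters are known for an upstream module in which a kappaB-type element lies beside an interferon response element. Motifs were searched for on both strands in RefSeq windows of 300 bases (GRCm38.p6) around each gene's start, which were found for 9 of the 10 members. The stretches below are 30 bases each, 5′ to 3′ on the gene's strand, and capitals mark the matches to GAAGTGAAA, GGGATTCCC and GAAANNGAA, not those to CCAAT. Each lies before the gene's RefSeq start, but all 30 bases of the H2-D1, H2-Q4 and H2-T23 stretches fall in an annotated GENCODE exon, and 0 of those of the others.
H2-K1: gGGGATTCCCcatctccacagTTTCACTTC
H2-D1: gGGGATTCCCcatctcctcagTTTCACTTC
H2-Q4: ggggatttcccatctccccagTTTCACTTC
H2-M3: attcccccatttcctctgaggTTTCACTTC
H2-T22: attggcttagtTTCACTTTCgaatccccaa
H2-T23: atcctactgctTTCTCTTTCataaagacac
B2m: tataagaacatGAAACTGAAaatgggaaag

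These stretches lie at chr17:34000429-34000458 (H2-K1, minus strand), chr17:35262923-35262952 (H2-D1, plus), chr17:35379443-35379472 (H2-Q4, plus), chr17:37270112-37270141 (H2-M3, plus), chr17:36042914-36042943 (H2-T22, minus), chr17:36032806-36032835 (H2-T23, minus) and chr2:122147537-122147566 (B2m, plus). The first 4 hold GAAGTGAAA, searched for as a class I response element, on the reverse strand (printed as TTTCACTTC). This motif was in 0.505% of the 32851 windows of all genes. H2-K1 and H2-D1 also hold GGGATTCCC, found in 0.353% of windows. The core of the interferon-stimulated response element, GAAANNGAA, was present in H2-T22, H2-T23 and B2m and in 8.56% of all windows. Only these fixed patterns were searched for, so a window without a match may still hold a variant of an element. CCAAT, the NF-Y box, was in 9 of 9 member windows and in 37.4% of all windows. H2-K1 and H2-D1 had the same letter at 29 of the 30 positions, H2-K1 and H2-Q4 at 28, and H2-K1 and H2-M3 at 14. The window of H2-M3, which did not pass the test, holds the same 9 letters as those of H2-K1, H2-D1 and H2-Q4. Whether these letters bear on the levels was not tested. A match describes letters in a window and is not a measurement of binding.

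Longer stretches are given for H2-T22, which rose under every setting tried, and for H2-M3, which passed under none of those in which it was tested, so that the surroundings of the capitals, which mark the same 3 motifs, can be read. Each runs from 200 to 21 bases upstream of the start and touches no annotated exon. They lie at chr17:36042763-36042942 (minus strand) and chr17:37270034-37270213 (plus strand).
H2-T22: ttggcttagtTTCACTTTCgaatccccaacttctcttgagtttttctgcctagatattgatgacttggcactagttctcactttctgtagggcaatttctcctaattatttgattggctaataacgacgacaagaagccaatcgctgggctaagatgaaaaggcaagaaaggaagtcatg
H2-M3: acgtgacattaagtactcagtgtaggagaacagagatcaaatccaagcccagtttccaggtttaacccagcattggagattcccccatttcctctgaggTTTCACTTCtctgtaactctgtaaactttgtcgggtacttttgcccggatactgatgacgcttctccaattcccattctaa

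The classical heavy chains H2-K1 and H2-D1 present peptides to CD8 T cells and are among the most variable mouse genes between strains. H2-K1 (chr17:33996017-34000347, minus strand) lay at 37.6, 41.9 and 43.7 FPKM in control libraries 1, 2 and 3 and at 52.1, 49.0 and 49.3 FPKM in conditioned-medium libraries 1, 2 and 3. The groups did not overlap, with means of 41.1 ± 3.12 FPKM and 50.1 ± 1.72 FPKM (SD, n = 3). The log2 fold change was 0.28 ± 0.06 (SE; 95% interval 0.15 to 0.42; limma adjusted p = 0.025). H2-K1 lost the call without control library 2 or without conditioned-medium library 1, 2 or 3, at adjusted p of 0.070, 0.11, 0.079 and 0.062.

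H2-D1 (chr17:35262730-35267499, plus strand) lay at 40.3, 45.2 and 45.8 FPKM in control and 56.9, 53.2 and 53.4 FPKM in conditioned medium. Again every conditioned-medium library was above every control library, and library 1 was the lowest control and library 1 the highest of the conditioned-medium group. The means were 43.8 ± 3.06 FPKM and 54.5 ± 2.08 FPKM (SD, n = 3), with a log2 fold change of 0.31 ± 0.06 (SE; limma adjusted p = 0.0148). Without conditioned-medium library 1 or 2 the adjusted p was 0.068 and 0.054. The strain background of the tendon donors is not given in the labels, and reads of other alleles may align less well to the reference. How this bears on the levels was not tested.

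The non-classical heavy chains vary less between strains and have narrower roles. H2-T23 encodes Qa-1, which carries a leader peptide of other class I chains to receptors of natural killer cells. H2-T23 (chr17:36029773-36032855, minus strand) measured 13.4, 14.2 and 14.6 FPKM in control and 23.5, 22.9 and 23.3 FPKM in conditioned medium. The lowest conditioned-medium library was well above the highest control library. The means were 14.1 ± 0.584 FPKM and 23.3 ± 0.306 FPKM (SD, n = 3), a 1.65-fold rise, with a log2 fold change of 0.69 ± 0.04 (SE; 95% interval 0.59 to 0.79; limma adjusted p = 5.8e-05). This fold change was rank 108 from the top of the 11678 tested genes.

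H2-T22 encodes a heavy chain that holds no peptide and is recognised by a subset of gamma delta T cells. H2-T22 (chr17:36037128-36042747, minus strand) measured 17.3, 18.4 and 18.6 FPKM in control and 27.0, 25.7 and 25.9 FPKM in conditioned medium, again without overlap. The means were 18.1 ± 0.721 FPKM and 26.2 ± 0.720 FPKM (SD, n = 3), and the log2 fold change was 0.51 ± 0.04 (SE; limma adjusted p = 3.22e-04). Of its 100-base words, 8.86% also occur in other genes' transcripts, mostly those of H2-T10, so its counts are partly uncertain. The share was 3.59% for H2-D1, 3.15% for H2-T23, 2.16% for H2-Q4 and 0.957% for H2-K1, and at most 0.0775% for the other members. How shared reads were assigned is not given in the sources used here, and their part in the values of these members was not tested. An antisense gene, A930015D03Rik, covers 29.4% of the H2-T22 exon bases and lay at 0.179 to 0.579 FPKM. Reads of the 2 genes may not be separable, because the strand setting of the counting is not given in the sources used here.

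H2-Q4 encodes Qb-1, of the Qa region. H2-Q4 (chr17:35379617-35385290, plus strand) was the lowest member, at 1.31, 1.16 and 1.32 FPKM in control and 2.14, 2.21 and 2.41 FPKM in conditioned medium. Its groups did not overlap, and the means of 1.26 ± 0.0890 FPKM and 2.26 ± 0.140 FPKM (SD, n = 3) gave the largest linear fold of the members, 1.79. On the log2(FPKM + 1) scale the change was 0.52 ± 0.07 (SE; limma adjusted p = 0.00381), which understates it because the level is close to the pseudocount. It rested on 69 to 79 fragments a library in control and 108 to 147 in conditioned medium. With a pseudocount of 0.1 FPKM the log2 change was 0.79 and with 5 FPKM it was 0.21, so its place among the members depends on that constant.

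H2-M3 presents N-formylated peptides, as made by bacteria and mitochondria. H2-M3 (chr17:37270220-37274484, plus strand) measured 4.49, 3.71 and 4.07 FPKM in control and 4.22, 4.36 and 4.41 FPKM in conditioned medium. Control library 1 was the highest of all 6, so the groups overlapped, with means of 4.09 ± 0.391 FPKM and 4.33 ± 0.10 FPKM (SD, n = 3). The log2 fold change was 0.07 ± 0.07 (SE; limma adjusted p = 0.637), with a 95% interval of -0.09 to 0.22. That interval lies below the estimates of the other heavy chains, although a test of the difference between H2-M3 and another member was not run.

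B2m encodes the light chain of the class I complex. B2m (chr2:122147686-122153083, plus strand) lies outside the MHC and was the most abundant member, at 286, 291 and 309.9 FPKM in control and 344, 352 and 329.5 FPKM in conditioned medium. Its groups did not overlap, and the means were 296 ± 12.6 FPKM and 342 ± 11.4 FPKM (SD, n = 3). The log2 fold change of B2m, 0.21 ± 0.04 (SE; 95% interval 0.11 to 0.31; limma adjusted p = 0.0238), was the smallest among the members that passed. With quantile normalization it was 0.13 (adjusted p = 0.0747). Without control library 1 or 2, or conditioned-medium library 1 or 2, its adjusted p was 0.052, 0.093, 0.10 and 0.12.

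Tap1 and Tap2 encode the subunits of the transporter that moves peptides into the endoplasmic reticulum. Tap1 (chr17:34187553-34197225, plus strand) measured 9.47, 8.67 and 8.18 FPKM in control and 12.1, 10.7 and 11.5 FPKM in conditioned medium, without overlap. The means were 8.77 ± 0.651 FPKM and 11.4 ± 0.675 FPKM (SD, n = 3), and the log2 fold change was 0.35 ± 0.06 (SE; limma adjusted p = 0.0164). Tap1 lost the call without control library 2 and without conditioned-medium library 1 or 3, at adjusted p of 0.065, 0.073 and 0.057.

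Tap2 (chr17:34203527-34216321, plus strand) measured 8.89, 7.48 and 7.89 FPKM in control and 10.2, 9.84 and 9.86 FPKM in conditioned medium. Control library 1 stood closest to the conditioned-medium libraries, but no library crossed. The means were 8.09 ± 0.727 FPKM and 9.95 ± 0.175 FPKM (SD, n = 3), and the log2 fold change of 0.27 ± 0.06 (SE; limma adjusted p = 0.0417) was the closest to the threshold of the 9 that passed. Tap2 kept the call without control library 1 and lost it without any other library, where the adjusted p ran from 0.10 to 0.14.

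Tapbp encodes tapasin, which bridges TAP and the empty heavy chain and favours tightly bound peptides. Tapbp (chr17:33915899-33929292, plus strand) measured 48.9, 52.1 and 53.5 FPKM in control and 60.5, 58.9 and 63.5 FPKM in conditioned medium. The groups did not overlap, the means were 51.5 ± 2.34 FPKM and 61.0 ± 2.34 FPKM (SD, n = 3), and the log2 fold change was 0.24 ± 0.05 (SE; limma adjusted p = 0.0191). Without control library 2 or conditioned-medium library 1, 2 or 3 the adjusted p of Tapbp was 0.063, 0.073, 0.051 and 0.066. Exons of Tapbp, Tap1, Tap2 and H2-Q4 also overlap those of neighbours, and reads in such bases could be counted for either gene. Tap1 shares 212 bases (3.87% of its exon bases) with Psmb9. Larger overlaps with genes on the opposite strand cover 24.9% of Tapbp (Gm19412), 19.1% of H2-Q4 (Gm11131) and 14.1% of Tap2 (Gm15821). Gm19412 has no values here, and Gm11131 and Gm15821 did not exceed 0.0476 and 0.492 FPKM.

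**Figure D2:**
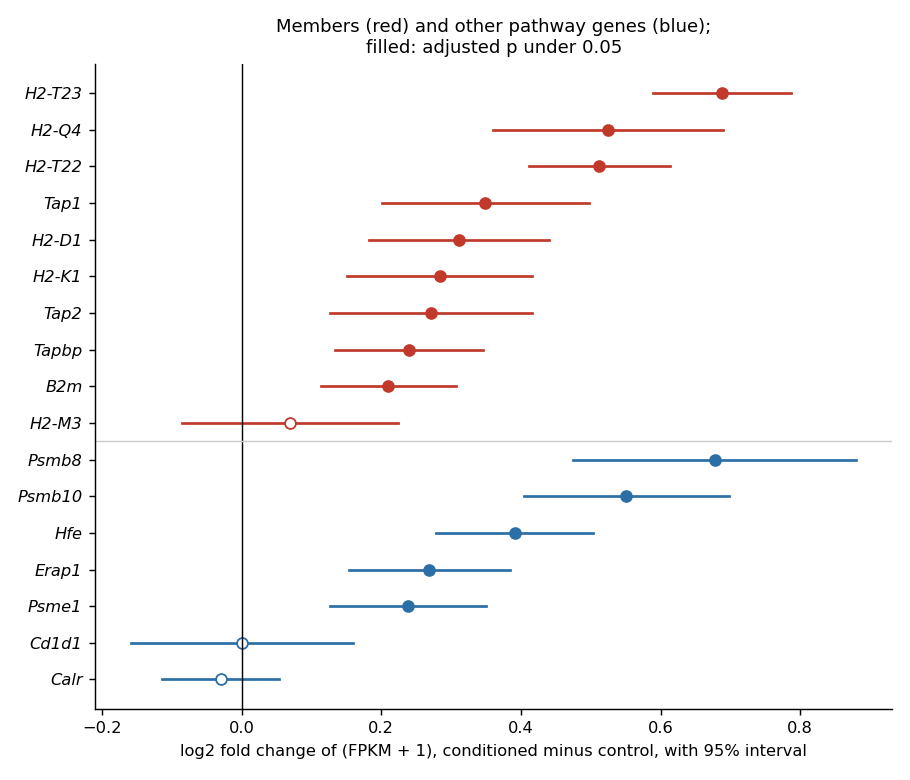
Log2 fold change (conditioned medium minus control, on the log2(FPKM + 1) scale) of the 10 members (red) and of the other pathway genes named here that were tested, apart from Psme2 and H2-T24 (blue), with 95% intervals from limma; filled points passed at an adjusted p of 0.05. The interval of H2-M3 crosses 0 and H2-T23 has the largest value, 0.69, of the members.

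The members fell in the same order of mean FPKM in both groups: B2m, Tapbp, H2-D1, H2-K1, H2-T22, H2-T23, Tap1, Tap2, H2-M3 and H2-Q4. In control, H2-D1 and H2-K1 overlapped, as did Tap1 and Tap2, and no other neighbours did. In conditioned medium no neighbours overlapped.

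Summed over the 6 heavy chains, the level was 114, 125 and 128 FPKM in control and 166, 157 and 159 FPKM in conditioned medium. The mean rose from 122 ± 7.14 FPKM to 161 ± 4.6 FPKM (SD, n = 3), 1.31-fold. The share of H2-T23 in this sum went from 11.5% to 14.5% and that of H2-T22 from 14.8% to 16.3%, while H2-K1 went from 33.5% to 31.2%, H2-D1 from 35.8% to 33.9% and H2-M3 from 3.36% to 2.70%. H2-Q4 contributed 1.04% and 1.41%. The sum therefore stayed mostly H2-K1 and H2-D1.

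**Figure D3:**
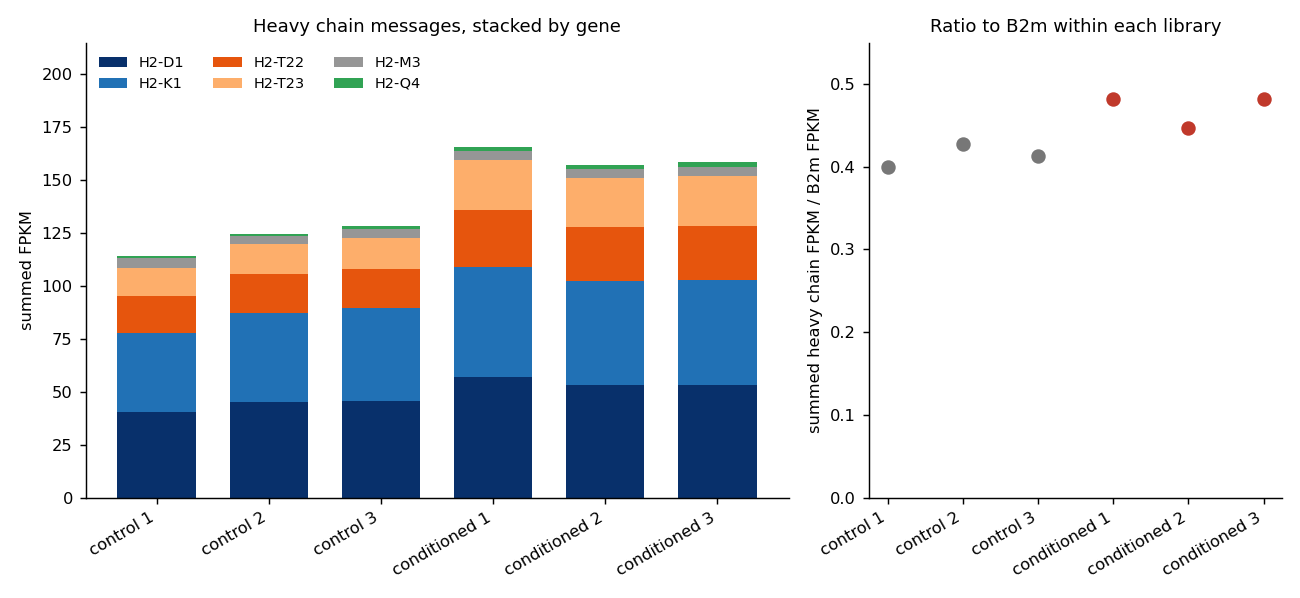
Left, summed FPKM of the 6 heavy chain genes in each library, stacked by gene; right, that sum divided by the FPKM of B2m in the same library. Conditioned-medium libraries sum to 157 to 166 FPKM and control libraries to 114 to 128 FPKM, H2-K1 and H2-D1 form most of each bar, and the ratios do not overlap between groups.

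Ratios within a library compare members free of the library's scale, and 5 were tested by an exact permutation test (two-sided), for which 3 libraries against 3 cannot give a p under 0.10. The ratio of summed heavy chains to B2m was 0.400, 0.428 and 0.413 in control and 0.482, 0.447 and 0.481 in conditioned medium. These values did not overlap, and the log2 difference was 0.18 (exact permutation p = 0.1, adjusted p = 0.167). The ratio of H2-T23 to H2-K1 went from 0.343 to 0.464, a log2 difference of 0.44, also without overlap (exact permutation p = 0.1, adjusted p = 0.167). H2-K1 to H2-D1 moved little, from 0.938 to 0.920, though also without overlap (log2 difference -0.03, exact permutation p = 0.1, adjusted p = 0.167). Tap1 to Tap2 (1.09 and 1.15, exact permutation p = 0.2, adjusted p = 0.25) and Tap1 to Tapbp (0.171 and 0.188, exact permutation p = 0.3, adjusted p = 0.3) had overlapping groups.

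Of 63 other genes listed for the class I pathway and its neighbours, 50 were in the table and 34 were tested. In conditioned medium 6 were higher, 0 were lower and 28 did not pass, and the median log2 fold change of the 34 was 0.06. Over all 11678 tested genes 4.04% were higher and 2.49% lower, with a median of 0.0052. The counts in each list below stand beside the same shares. Among 19 other class I heavy chains, 1 was tested (H2-T24, log2 fold change -0.09, limma adjusted p = 0.87), and the 9 others in the table did not exceed 0.365 FPKM. H2-T24 averaged 2.58 FPKM in control, beside the 122 FPKM of the 6 heavy chains among the members.

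Among 8 genes of peptide loading and quality control in the endoplasmic reticulum, 1 was higher. Erap1, the aminopeptidase that trims peptides there, went from 5.49 ± 0.211 FPKM to 6.82 ± 0.170 FPKM (SD, n = 3; log2 fold change 0.27, limma adjusted p = 0.0169). Without control library 2 or conditioned-medium library 1, 2 or 3 its adjusted p was 0.059, 0.052, 0.079 and 0.061. Calr, the chaperone of the loading complex, measured 406 ± 7.90 FPKM and 398 ± 13.9 FPKM (log2 fold change -0.03, limma adjusted p = 0.716).

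Among 7 tested genes of peptide supply in the cytosol, 3 were higher. Psmb8, a catalytic subunit of the immunoproteasome, rose from 3.04 ± 0.431 FPKM to 5.44 ± 0.405 FPKM (SD, n = 3; log2 fold change 0.68 ± 0.09 SE, limma adjusted p = 0.00295). Psmb10, another such subunit, rose from 12.3 ± 0.894 FPKM to 18.5 ± 1.13 FPKM (log2 fold change 0.55, limma adjusted p = 0.00167). Psme1, of the PA28 activator, had a log2 fold change of 0.24 (limma adjusted p = 0.0258), and without control library 1 or 2 or conditioned-medium library 1 or 2 its adjusted p was 0.057, 0.10, 0.11 and 0.11. Psme2 did not pass (0.29, adjusted p = 0.116). Psmb9, which lies head to head with Tap1, was under the level tested, at 0.501 to 0.625 FPKM in control libraries, against 0.959 to 1.26 FPKM with conditioned medium.

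Of 13 genes listed for class I transcription 12 were tested, of which 1 was higher, 0 were lower and 11 did not pass. Nlrc5, the transactivator of class I genes, was too low to be tested, at 0.162 ± 0.0282 FPKM and 0.347 ± 0.0670 FPKM (SD, n = 3). Every conditioned-medium library was above every control library, at 27 to 35 fragments a library in control and 53 to 67 in conditioned medium. Of 4 class I-like proteins that pair with B2m, Hfe, a regulator of iron uptake, rose from 4.46 ± 0.0602 FPKM to 6.15 ± 0.182 FPKM (log2 fold change 0.39, limma adjusted p = 0.00243). Cd1d1, which presents lipids, had a log2 fold change of 0.00 (95% interval -0.16 to 0.16, limma adjusted p = 0.998). Of 11 class II genes 2 were tested and 0 passed, and the class II transactivator Ciita lay at 0.0416 and 0.0458 FPKM in the group means.

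**Figure D4:**
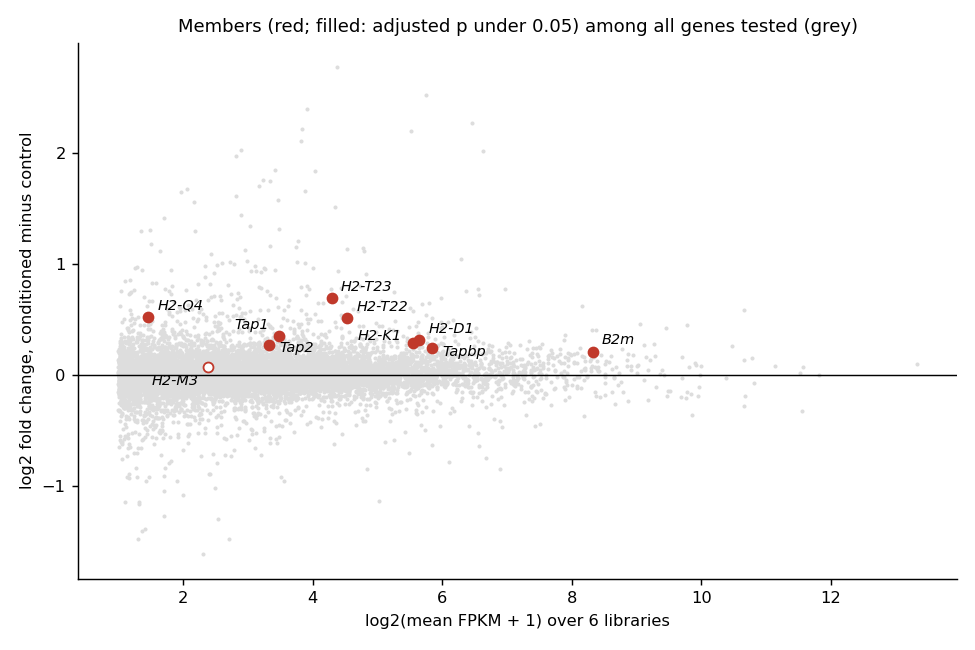
Each tested gene (grey) by log2(mean FPKM + 1) over 6 libraries and by log2 fold change (conditioned medium minus control, log2(FPKM + 1) scale), with members in red, filled where they passed at an adjusted p of 0.05. All 10 members lie above 0, with H2-T23 highest at 0.69 and H2-M3 lowest at 0.07.

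Of the members, 9 lie in a stretch of chromosome 17 (chr17:33915899-37274484) that holds the MHC, where 80 other genes were tested. Of those, 5 were higher (Rps18, Psmb8, C4b, Hspa1b and Flot1; 6.25%) and 1 was lower (Tubb5). This is near the shares over all tested genes, 4.04% higher and 2.49% lower. The median log2 fold change of the 80 was 0.04. Genes that passed in this stretch were interspersed with others that did not.

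**Figure D5:**
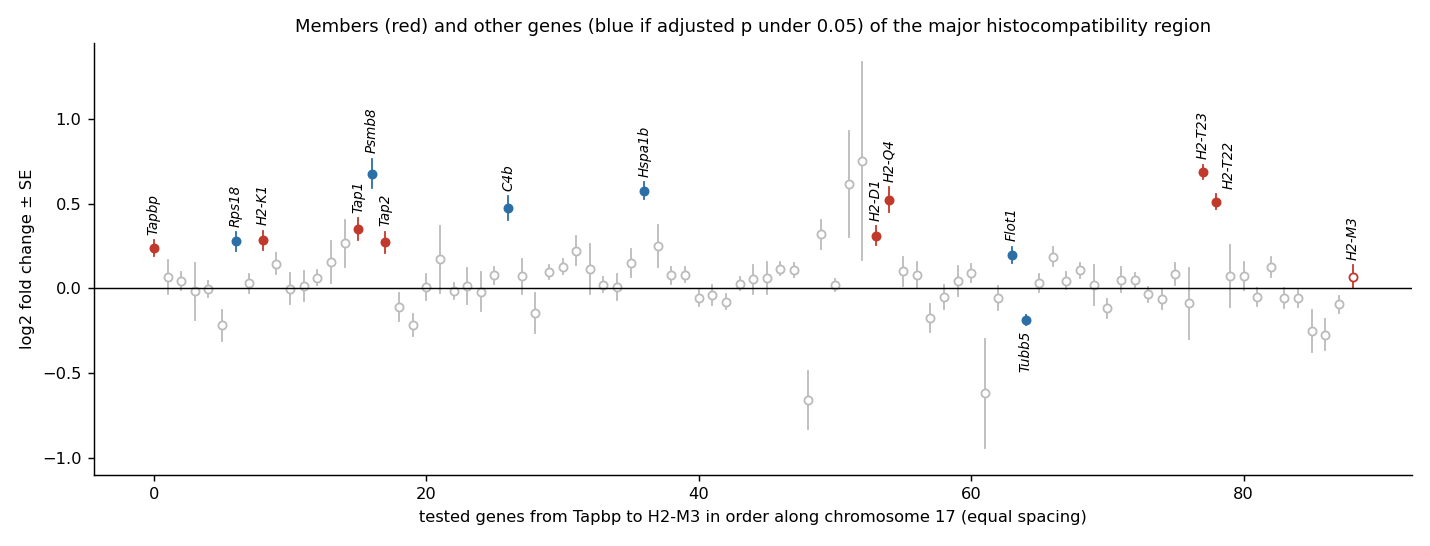
Log2 fold change (conditioned medium minus control, log2(FPKM + 1) scale) with its SE for the 89 tested genes from Tapbp to H2-M3, in order along chromosome 17 with equal spacing; members are red (open where not passing), other genes blue if they passed at an adjusted p of 0.05 and grey otherwise. The members' values, 0.07 to 0.69, stand among 80 other genes with a median of 0.04.

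Genes outside the list whose centred values over the 6 libraries were closest to the members' average profile were Lss, a cholesterol synthesis enzyme, Pkm and Pgd, enzymes of glucose use, Sbno2 and Esd. Their root mean square difference from that profile was 0.0049 to 0.029 on the log2 scale, over 6 libraries in 2 groups, beside a size of 0.174 for the profile itself. Lss, the closest, measured 9.18, 9.12 and 9.50 FPKM in control and 12.3, 11.9 and 12.0 FPKM in conditioned medium.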

How the data were processed

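The values are FPKM as deposited by the authors in a table of 24413 genes by 6 libraries. CASAVA, HISAT2 2.0.5 and mm10 are listed, per the submitters' processing notes. How fragments were counted, with which annotation release, strand setting and filters, is not given in the sources used here. Genes averaging 1 FPKM or more were tested on log2(FPKM + 1) with limma 3.58.1 (R 4.3.3; trend and robust prior), comparing 3 libraries with 3 and adjusting over 11678 genes by the Benjamini-Hochberg method. Fragments were recovered from the FPKM steps, which estimates depth and served an alternative fit. At their GENCODE exon length, 23574 of 24413 genes (96.6%) were whole within 0.01 fragment. For the others, among them H2-K1 and Tapbp, a length was chosen that made the values whole. Those genes therefore do not check the recovery. Coordinates come from the GENCODE annotation of mm10, and promoter letters from RefSeq (GRCm38.p6). The script was tested on simulated data, with a set spread that may differ from that of these libraries. There 33.6% of genes changed 1.25-fold were recovered, and 86.6% of those changed 1.5-fold. A gene that did not pass may therefore still have changed by a small fold. The members and lists were chosen with earlier results of these data known. Named are all 10 members, listed pathway genes that passed or define their list, and the 5 genes closest to the members' profile; Psmb9, Psme2, H2-T24 and the genes of the MHC stretch were named in addition, after their values were seen. Of the pathway genes counted, 1 that passed is not reported here by name. Alternatives were no filter or a minimum of 5 FPKM, a pseudocount of 0.1 or 5, quantile normalization, a replicate block, no trend and no robust prior, voom on recovered fragments, and leaving out each library.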

Additional observations from a re-analysis of the deposited data

How the results depend on the processing

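14 alternatives were run, and no result reversed. H2-T22, H2-T23 and H2-Q4 passed under each alternative in which they were tested. The number of members higher, 9, became 3 with no filter on low values and 4 with the replicate block. It became 5 with no trend and no robust prior, and 7 with quantile normalization, where B2m and Tap2 did not pass. With 1 library left out it became 3 to 8. The cause was not tested. The genes higher, 472 over all, became 259 with the replicate block and 265 to 426 with 1 library left out. The genes lower, 291, became 165 with no filter, 131 with the block, 440 with limma's voom on recovered fragments and 129 to 252 with 1 library left out. Whether the labels' replicate numbers pair the samples is not given. Deviations of same-numbered libraries correlated at -0.0948, -0.00803 and -0.0476. With 3 libraries a group, these values cannot decide whether libraries share an animal. Depth limits H2-Q4 and H2-M3 most, at 69 to 150 fragments a library.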
